A study of Mus musculus with 5 samples.

Results

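The comparison described here set the target mRNAs held by Ago in the fetal liver at e12.5 (e for embryonic day) against those held in the adult liver, gene by gene. A gene counted as bound at a stage when at least 1 Ago cluster with a seed-matched site lay in its 3′UTR, coding sequence (CDS) or 5′UTR in the table of that stage. By this rule 13114 genes were bound at e12.5 or in the adult, of 14336 bound in any of the 5 stages of the series. The genes fell into 3 classes: 8860 were bound at both stages, 2953 at e12.5 only and 1301 in the adult only. The stage-only classes made up 22.5% and 9.92% of the genes bound at either stage. Which of them was larger rested on the make-up of the e12.5 table: with the first of its 2 lists alone, 1364 genes were bound at e12.5 only and 3858 in the adult only.

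Ago HITS-CLIP crosslinks RNA to Ago proteins by ultraviolet light in tissue, precipitates the complexes and sequences the bound RNA, so that miRNAs and the mRNA fragments under them are read together. The livers came from C57BL/6J mice with no named allele or drug treatment. The adult animals were 6 to 8 weeks old, and fetal age was counted from the vaginal plug. Crosslinking was the same for both, with 3 exposures at 254 nm and 0.2 J/cm2. Ago2 was precipitated at both stages, and Ago1 antibodies were added for the adult (and for postnatal day 7, P7) but not for e12.5, so antibody and stage cannot be told apart. The labels give 1 sample per stage, so no difference below has a replicate check and none was tested. The methods mention biological replicates of the Ago2 experiments and a repeat sample is named at e18.5, but neither the e12.5 nor the adult table used here is labelled by replicate. Intervals of shares are Wilson 95% intervals and cover counting error only.

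The e12.5 table was the larger one. It held 95118 clusters in the 3 mRNA regions against 53533 in the adult, and 44867326 summed cluster reads against 24885228. Of these reads, 23.1% at e12.5 and 13.5% in the adult lay in mRNA clusters. Read numbers below are the highest number of reads in any cluster of a gene, and scaled reads are that number divided by the summed cluster reads of its table and given in rpm. No table lists a cluster under 5 reads, which is 0.111 scaled reads at e12.5 and 0.201 in the adult, so a gene called bound at 1 stage only may have been below that floor at the other. The e12.5 table consists of 2 lists that the labels do not describe, with 25134 and 82602 mRNA clusters, and the adult table of 1; the lists were joined and their reads added. The header of the read column speaks of the miRNA target in the e12.5 table and of the peak in the adult table, and the sources used here do not say if the measure differs. The tables hold no mRNA levels, so more Ago on an mRNA and more of that mRNA cannot be told apart, nor can fewer cells of a type and less RNA per cell.

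At midgestation the liver is the main site of blood formation, and immature hepatoblasts are scattered among dividing erythroid precursors. Around birth haematopoiesis moves to the bone marrow, and hepatocytes take up plasma protein secretion, urea synthesis, gluconeogenesis, bile acid synthesis and drug metabolism, with cell division becoming rare. miRNAs guide Ago to mRNAs mainly by pairing of bases 2 to 8 of the miRNA, the seed, and pairing usually lowers the stability and translation of the target.

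The miRNAs named here are among those whose share of the miRNA reads differed between the 2 tables, and the choice is not a ranking. The share of miR-126a, with 0.600% at e12.5 and 5.05% in the adult, differed more than that of some of them. The erythroid pair miR-144 and miR-451a and the blood cell miRNA miR-142a held 21.7%, 6.98% and 32.2% of all miRNA reads at e12.5 and 1.54%, 0.722% and 4.34% in the adult. The seed families of let-7, miR-16, the liver miRNA miR-122 and miR-194 held 2.45%, 4.25%, 1.44% and 0.652% at e12.5, compared with 22.4%, 14.9%, 11.2% and 10.01% in the adult. Mature sequences of miRNAs discussed below follow from 5′ to 3′, with the seed in capitals, as given by RefSeq for GRCm38.p6.
miR-142a-3p: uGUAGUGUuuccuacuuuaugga
miR-144-3p: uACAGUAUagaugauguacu
miR-451a: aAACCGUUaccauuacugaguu
miR-136-5p: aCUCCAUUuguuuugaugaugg
miR-16-5p: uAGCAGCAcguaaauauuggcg
let-7c-5p: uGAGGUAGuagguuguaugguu
miR-194-5p: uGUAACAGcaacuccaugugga
miR-27b-3p: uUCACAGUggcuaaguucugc
miR-122-5p and miR-486b-5p are used below by name.

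The following sites show the match to these seeds in genes bound at e12.5 only. Each is a fragment of the mRNA strand in mm10 (GRCm38), 5′ to 3′, with the bases that pair with the seed, or lie opposite its first base, in capitals. They were chosen from fetal, blood cell and mitotic genes.
Igf2bp1, let-7 site in the 3′UTR at chr11:95961760-95961781, minus strand, 302 reads: ctcaaggtgtgaagtTACCTCA
Igf2bp3, let-7 site in the 3′UTR at chr6:49086787-49086808, minus strand, 279 reads: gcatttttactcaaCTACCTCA
Lin28b, let-7 site in the 3′UTR at chr10:45381022-45381043, minus strand, 34 reads: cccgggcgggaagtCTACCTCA
Igf2, let-7 site in the 3′UTR at chr7:142651451-142651472, minus strand, 769 reads: gggcggctggaggttTACCTCA
Igf2, miR-16 site in the 5′UTR at chr7:142659329-142659350, minus strand, 19108 reads: gtccgccacctcgcTGCTGCTA
Nek2, miR-144 site in the CDS at chr1:191822299-191822318, plus strand, 9134 reads: catcgtaatggaATACTGTg
Myb, miR-16 site in the 3′UTR at chr10:21125459-21125480, minus strand, 478 reads: ttagcctgtagtcaTGCTGCTA
The deposited conservation score, which runs from 0 to 1, was 1 for the let-7 sites of Igf2bp1, Igf2bp3 and Lin28b and for the Myb site, 0.961 and 0.945 for the Igf2 sites and 0.967 for the Nek2 site.

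Sites of genes bound in the adult only are shown in the same way.
G6pc, miR-16 site in the 3′UTR at chr11:101377469-101377490, plus strand, 1909 reads: ttgttccctggcccTGCTGCTg
Igfals, miR-194 site in the 3′UTR at chr17:24881795-24881816, plus strand, 593 reads: aggatagtgtttcaCTGTTACA
Tat, let-7 site in the 3′UTR at chr8:109999325-109999346, plus strand, 209 reads: gcctcacttcagcaaTACCTCA
Cyp2a5, let-7 site in the 3′UTR at chr7:26837221-26837242, plus strand, 238 reads: cttccagttcactgCTACCTCc
Cyp2e1, miR-194 site in the CDS at chr7:140774664-140774685, plus strand, 643 reads: tatcgacctcagccCTGTTACA
The score of these 5 sites lay between 0 and 0.142. Over all 3′UTR sites the median score was 0.069 in genes bound at e12.5 only and 0.012 in genes bound in the adult only, against 0.34 at e12.5 and 0.304 in the adult for genes bound at both stages. In the CDS it was 0.917, 0.672, 0.985 and 0.953 in the same order.

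Known markers of liver cells were read first, as a check of the labelled tissue. All 6 hepatocyte markers (Alb, Apoa1, Apob, Ttr, Trf and Serpina1c) were bound at both stages, with 140 summed scaled reads at e12.5 and 2844 in the adult. Of 6 markers of mature hepatocytes, 2 were bound at e12.5 and 6 in the adult, with 3.52 and 464 summed scaled reads; Cyp2e1, Cyp3a11, Cyp7a1 and Hamp had no cluster at e12.5. The hepatoblast markers Afp, Dlk1 and Igf2 had clusters at e12.5 and none in the adult, and the summed scaled reads of their list were 516 and 1.57. Erythroid markers were bound in 10 of 12 at e12.5 and 6 of 12 in the adult, with 58863 and 1501 summed scaled reads, nearly all from globin genes, whose near-identical copies share reads and were each counted. Slc4a1, Klf1 and Gata1 had no cluster in the mRNA regions in the adult. Leukocyte markers were at 15.8 and 26.2, endothelial markers at 5.79 and 38.8, and stellate markers at 15.2 and 17.8. The erythroid and the hepatocyte markers were thus higher at opposite stages, as were the gene groups described below, and their part in those results was not tested.

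Genes bound at e12.5 only had a median of 2 clusters and 42 reads in their highest cluster, with a range from 5 to 19108. A single cluster was listed for 1182 of them (40.03%). Adult-only genes had a median of 2 clusters and 27 reads, with a range from 5 to 16816 and 1 cluster in 614 (47.2%). Genes bound at both stages were covered more densely, with medians of 6 clusters and 124 reads at e12.5 and 4 clusters and 37 reads in the adult. Many genes of the stage-only classes were close to the floor. A level 10 times the adult floor, with both tables scaled to their mRNA cluster reads, was reached by 497 of the 2953 e12.5-only genes, while 546 lay below the adult floor itself on that scale. For the adult-only genes, 938 reached 10 times the e12.5 floor and 0 lay under it. A further limit was the make-up of the e12.5 table: 1145 of the e12.5-only genes (38.8%) had a cluster in both of its lists, against 6138 (69.3%) of the genes bound at both stages. The tables also listed 534 of the e12.5-only genes in the adult, and 474 of the adult-only genes at e12.5, outside the 3 mRNA regions.

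Among the e12.5-only genes not listed elsewhere in the adult table, Igf2, the fetal growth factor, had the most reads. Its highest cluster held 19108 reads, or 426 scaled reads, and it had 48 clusters, 31 of them 3′UTR, 6 CDS and 11 5′UTR clusters. The first list of the e12.5 table gave 17539 of these reads and the second 1569. Nek2, a centrosome kinase of mitosis, followed with 9134 reads in 29 clusters. The lists gave 3652 and 5482 reads for it. The embryonic globin Hba-x had 5161 reads, the neutrophil protein S100a9 3313, the mitotic protein Dlgap5 3209 and Afp, the fetal counterpart of albumin, 3178. Also among the first 12 were Hist1h4f (3093 reads), a replication-dependent histone, Trim10 (3091), known from red cell differentiation, Cdkn2d (2710), an inhibitor of cyclin-dependent kinases, Trim59 (2521) and Rgcc (1909). All of these were read far above the lowest level the adult table lists.

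Tdo2, which opens the ring of tryptophan and marks mature hepatocytes, was by far the highest of the adult-only genes. It had 16816 reads, or 676 scaled reads, in 18 clusters of which 17 were in the CDS. The major urinary protein genes Mup11 and Mup18 followed with 8071 reads each; they are near-identical copies and share the same reads, so they cannot be told apart. Next, among the genes that the e12.5 table lists nowhere, were the cytochromes P450 Cyp2e1 (3671 reads in 15 clusters) and Cyp2b9 (3392 in 17), another urinary protein gene, Mup3 (2416), and the drug-metabolizing Cyp3a11 (2311 in 19). Spata33 had 1983 reads in 1 cluster of the 5′UTR. G6pc, the last enzyme of glucose release, had 1909 reads in 23 clusters, 12 of them in the 3′UTR, the steroid-metabolizing Akr1c6 had 1714, and Hamp, the iron hormone hepcidin, had 1699, as had its copy Hamp2. Except for Spata33, these genes encode secreted proteins or metabolic enzymes of hepatocytes.

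**Figure D1:**
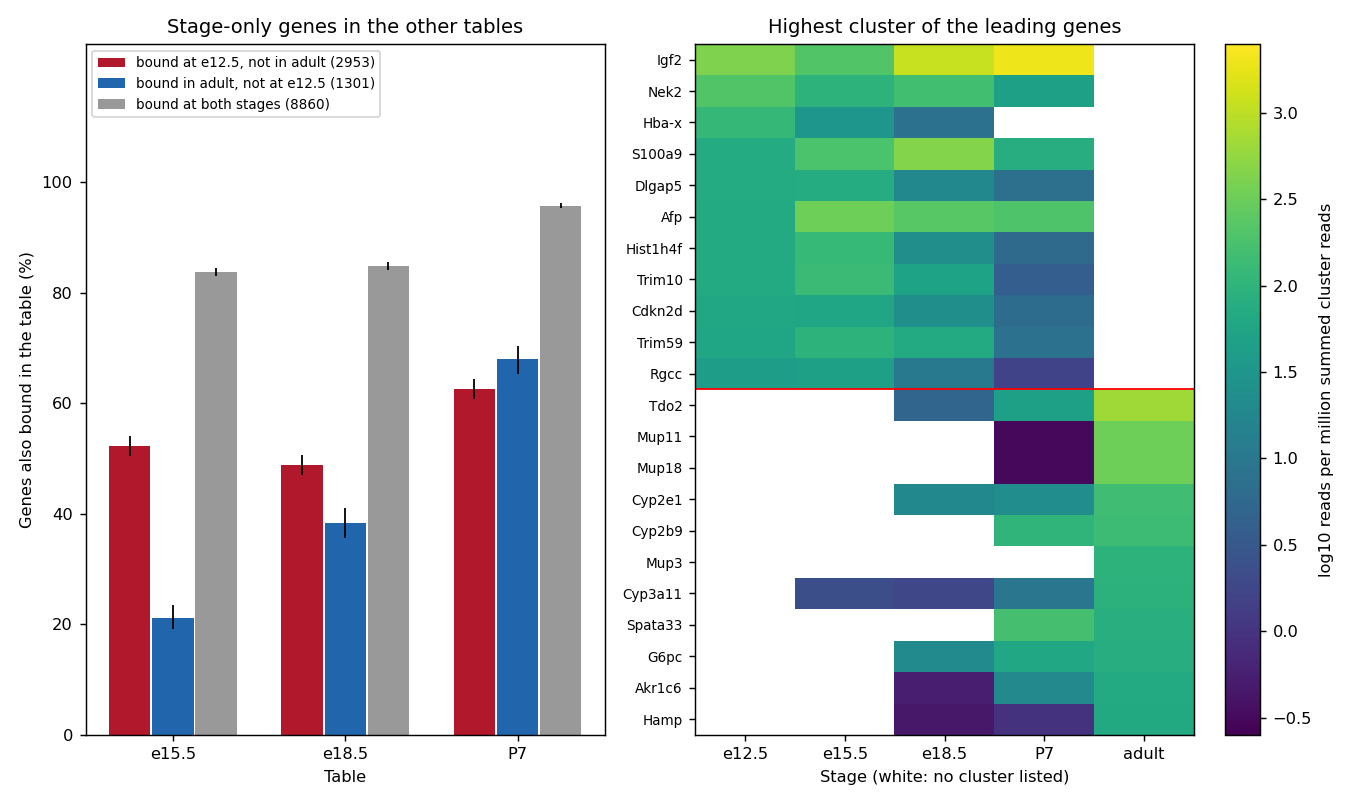
Left, share of the genes of each class that also had a cluster at e15.5, e18.5 and P7 (bars, with Wilson 95% intervals); right, scaled reads of the highest cluster (log10 colour scale) of leading genes bound at e12.5 only (11 genes, above the red line) and in the adult only (11 genes, below it) in all 5 tables. The e12.5-only genes were present in 52.2%, 48.9% and 62.6% of cases, and the adult-only genes in 21.2%, 38.3% and 67.9%, while white cells mark genes with no listed cluster.

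The 3 tables in between had no part in choosing the stage-only genes, and they placed the classes in time. Of the e12.5-only genes, 1542 were bound at e15.5 (52.2%, interval 50.4 to 54.0), 1443 at e18.5 (48.9%, interval 47.1 to 50.7) and 1848 at P7 (62.6%, 60.8 to 64.3). Of the adult-only genes, 276 were bound at e15.5 (21.2%, interval 19.1 to 23.5), 498 at e18.5 (38.3%, interval 35.7 to 41.0) and 884 at P7 (67.9%, 65.4 to 70.4). Genes bound at both stages were found in 83.8%, 84.8% and 95.7%. The share of adult-only genes was thus higher at each later stage, beyond the counting error. For the e12.5-only genes the order depended on the floor: with at least 20 reads asked of a cluster, the shares were 57.5%, 44.2% and 41.8% at e15.5, e18.5 and P7, lower at each later stage. The P7 table lists 80134 mRNA clusters against 45083 at e15.5 and 42466 at e18.5, and its Ago1 antibody is that of the adult, so the higher shares at P7 cannot be told apart from depth or antibody. By pattern, 914 of the e12.5-only genes (31.0%) were bound at all of e15.5, e18.5 and P7 and 674 (22.8%) at none of them. Among the adult-only genes, P7 alone was the commonest pattern with 358 genes (27.5%), followed by none with 331 (25.4%) and e18.5 with P7 with 291 (22.4%).

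The leading genes followed different courses. Hba-x had 524 reads at e15.5, 104 at e18.5 and no cluster at P7, and Dlgap5 had 1252, 245 and 122. Igf2 and Afp stayed high through P7, with 3401, 14865 and 33213 reads for Igf2 and 5512, 2984 and 3258 for Afp, and were absent from the adult table alone. Of the adult leaders, Tdo2 had no cluster at e15.5, 67 reads at e18.5 and 771 at P7, Cyp2e1 had 0, 241 and 382, and G6pc had 0, 265 and 990. Mup3 was listed in the adult table alone, and Mup11 and Mup18 had 5 reads at P7. Hamp had 6 reads at e18.5 and 16 at P7, so its 1699 reads in the adult were almost wholly a feature of the latest stage.

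For the genes bound at both stages, the scaled reads of the adult were divided by those of e12.5. The median log2 ratio was -0.58 and its quartiles were -1.69 and 0.71. When reads were scaled to the reads in mRNA clusters alone the median was 0.19, so its direction depends on the scaling. At least 4-fold higher at e12.5 were 1712 genes (19.3%), and at least 4-fold higher in the adult 906 (10.2%). That split depends on the scaling too: relative to the median gene, 1065 genes (12%) were at least 4-fold higher at e12.5 and 1379 (15.6%) at least 4-fold higher in the adult. All ratios below are given relative to the median gene and called centred log2 ratios, positive when the adult was higher. Of the 7283 genes found in both lists of the e12.5 table, 11.55% differed at least 4-fold between the lists after the same centring. Between the stages the share was 27.6%, but the lists are of unequal depth and not labelled as replicates. Without centring the shares were 43.7% and 29.5%, since the median gene differed by -1.79 on the log2 scale between the lists.

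The largest ratios towards e12.5 were those of Rpl26, a ribosomal protein, with 18779 reads at e12.5 and 9 in the adult (centred log2 ratio -9.59), and Cdc20, which starts anaphase, with 9820 and 9 reads (-8.66). The histone genes Hist1h3g, with 10544 and 12 reads, Hist4h4, with 9778 and 17, and Hist1h1a, with 3948 and 9, were close to them. So were Prc1, a protein of the dividing spindle (13434 and 18), Npm1 of the nucleolus (3768 and 6) and Rrm1, which makes deoxyribonucleotides (15221 and 30). In the other direction, Acaa1b, of peroxisomal fatty acid oxidation, had 18 reads at e12.5 and 5876 in the adult (9.79), and Cyp8b1, which makes cholic acid, had 9 and 2818 (9.73). Mug1 and Mug2, the murinoglobulins, had 5 and 1512 reads each and may share reads. Gls2, the liver glutaminase, had 12 and 3158, Gc, the vitamin D carrier, 94 and 23823, Apoc3 41 and 8571 and the bicarbonate transporter Slc4a4 6 and 1104. The lower number of these pairs lay between 5 and 94 reads, against a floor of 5. With the first e12.5 list alone, the ratios of the 8 genes named towards e12.5 were smaller, from -7.14 for Rpl26 to -4.87 for Rrm1. Of the 8 named towards the adult, Gc alone had reads in that list (10.06), and with the second list alone the ratios of the other 7 were also smaller, from 8.01 for Slc4a4 to 8.84 for Acaa1b, while that of Gc was 9.94.

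**Figure D2:**
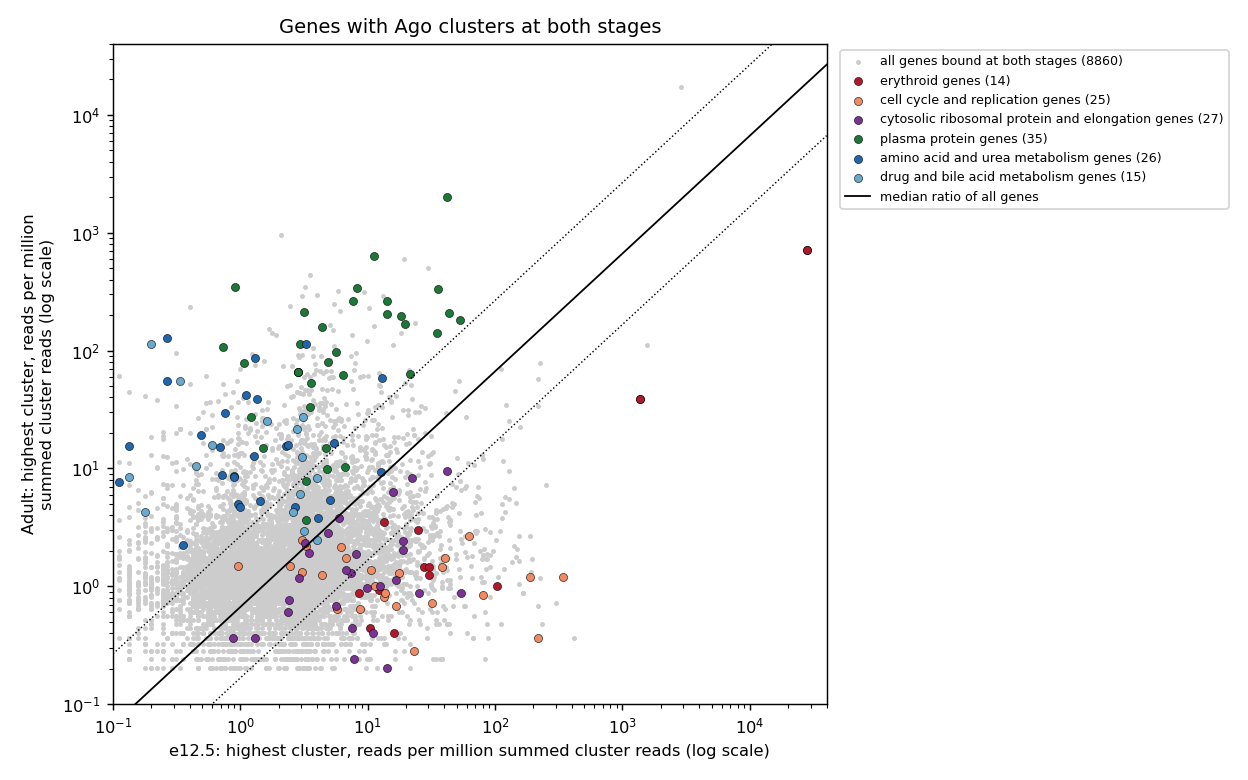
Scaled reads of the highest cluster of each gene bound at both stages at e12.5 (x axis) and in the adult (y axis), both on log scales, with 6 gene lists in colour, the median ratio of all 8860 genes as a solid line and 4-fold departures from it as dotted lines. Erythroid, cell cycle and ribosomal protein genes lie mostly below the line, with median centred log2 ratios of -3.99, -3.19 and -1.72, and plasma protein, amino acid and drug metabolism genes above it, with 4.47, 3.88 and 3.71.

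Gene groups were read from 16 lists of 475 symbols, of which 472 matched the annotation. The background for each list is the whole set, with 22.5% of genes bound at e12.5 only, 9.92% in the adult only, and, of those bound at both stages, 12% at least 4-fold higher at e12.5 and 15.6% at least 4-fold higher in the adult after centring. Bound at both stages were 8860 of the 13114 genes bound at either stage. The counts of 4-fold differences below are after centring. Of the members bound at 1 stage only, 13 of 63 at e12.5 and 9 of 58 in the adult were listed by the other table outside the mRNA regions, mostly in introns.

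Fetal and oncofetal genes were bound at e12.5 only in 13 of 23 and in the adult only in 0. Beside Igf2 and Afp, they included the RNA-binding proteins Igf2bp1 (385 reads), Igf2bp3 (279), Lin28b (141) and Lin28a (33), the chromatin protein Hmga2 (116), Dlk1 (495), a Notch ligand of hepatoblasts, and the stem cell factor Sall4 (131). The let-7 sites of Igf2bp1, Igf2bp3 and Lin28b are those printed above, and these mRNAs are textbook let-7 targets. A cluster of Igf2bp1 overlaps an annotated miRNA gene. The 9 members bound at both stages had a median of -1.15 (-0.46 with at least 20 reads), with imprinted Peg3 (477 and 15 reads, -3.56) and Grb10 (613 and 26, -3.12) lowest. H19, which is noncoding, had no cluster in an mRNA region.

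Erythroid genes were bound at e12.5 only in 13 of 29 and in the adult only in 0, and 13 of the 14 bound at both were at least 4-fold higher at e12.5 (median -3.99, and -2.64 with the first e12.5 list alone). The α-globin genes Hba-a1 and Hba-a2 share their reads, 1251174 and 1251181 at e12.5 and 17690 in the adult for each, and the β-globin genes Hbb-bs and Hbb-bt had 61458 and 969. Alas2, the first enzyme of red cell haem synthesis, had 4684 and 25 reads (-6.11), and Epor, the erythropoietin receptor, had 1359 and 31 (-4.02). The membrane skeleton genes Ank1 (12290 reads) and Slc4a1 (2173), the transcription factors Klf1 (447) and Gata1 (620) and the embryonic globins Hbb-y (1706) and Hbb-bh1 (332) had no adult cluster in an mRNA region. The fetal-adult globin switch factor Bcl11a (242) was in the same class. The adult table listed intron clusters for Ank1 (3), Slc4a1 (1) and Bcl11a (1).

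The leukocyte and stem cell list split in 2 directions. Myb (478 reads) and Runx1 (623), factors of blood stem and progenitor cells, and Mpo (305), Prtn3 (266) and Elane (65), granule proteins of myeloid precursors, were among the 10 of 24 bound at e12.5 only. The 4 bound in the adult only were Clec4f (323) and Vsig4 (64), markers of Kupffer cells, Cd74 (99), of antigen presentation, and Cd68 (16). The 10 bound at both had a median of -0.29, from Ikzf1 (960 and 13 reads, -4.77) to Csf1r, the macrophage growth factor receptor (44 and 118, 2.86). That median turned positive, at 0.37, when the reads of all clusters of a gene were summed.

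Cell cycle genes were bound at e12.5 only in 16 of 42, and 17 of the 25 bound at both were at least 4-fold higher at e12.5, with 0 at least 4-fold higher in the adult (median -3.19). The mitotic kinases Aurka (1109 reads), Aurkb (236) and Plk1 (279), the cyclins Ccnb1 (1039) and Ccne1 (798), E2f2 (885) and Myc (347) had no adult cluster. Top2a had 8478 and 30 reads (-6.71), Mki67 1027 and 7 (-5.76) and Cdk1 1431 and 18 (-4.88). The cell cycle inhibitor Cdkn1a was the 1 member bound in the adult only, with 314 reads. The G1 genes Ccnd1 (0.28), Ccnd2 (0.03) and Cdk2 (-0.15) lay close to the median gene, and Cdk6 (43 and 37 reads, 1.22) was the highest of the members bound at both stages. With the first e12.5 list alone the median of the list was -1.86.

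**Figure D3:**
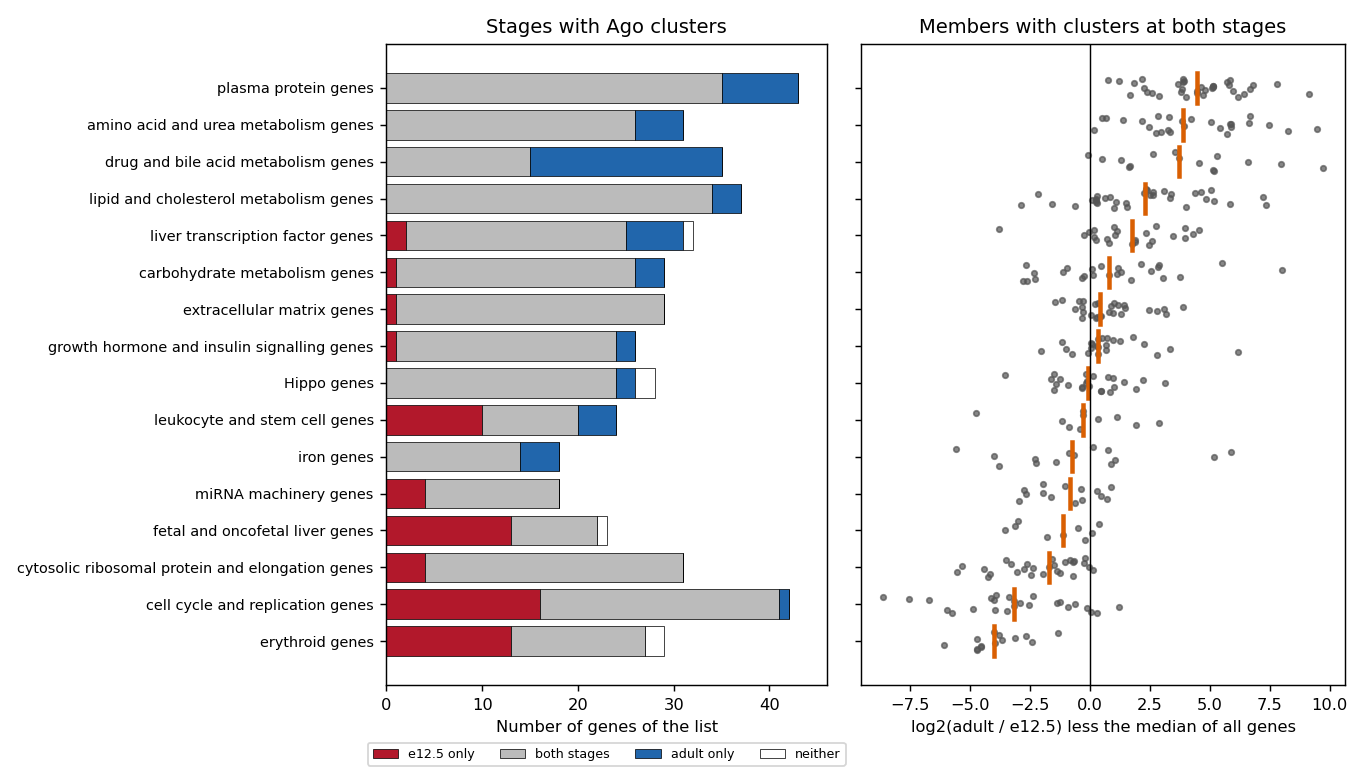
Left, number of members of each gene list bound at e12.5 only, at both stages, in the adult only or at neither; right, centred log2 ratio (adult over e12.5, less the median of all genes) of each member bound at both stages (points), with the list median (orange bar). The lists are ordered by median, from -3.99 for erythroid to 4.47 for plasma protein genes.

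Of 43 plasma protein genes, 0 were bound at e12.5 only and 8 in the adult only, and 31 of the 35 bound at both were at least 4-fold higher in the adult (median 4.47). Alb had 1890 reads at e12.5 and 50078 in the adult (6.16), Apoe 506 and 15895 (6.41), the prothrombin gene F2 143 and 5308 (6.65), and the haem- and haemoglobin-binding proteins Hpx 33 and 2695 (7.79) and Hp 48 and 1966 (6.79). Smaller differences were those of Ttr (1581 and 3491, 2.58) and Ahsg (2366 and 4525, 2.37), both already read deeply at e12.5. The adult-only members included Apoa4 (377), Apoa5 (300) and Apoc1 (706). Serpina1a, Serpina1c and Serpina1e carry identical numbers and share reads.

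Of the 16 lists, that of drug and bile acid genes had the largest part bound in the adult only, 20 of 35, with 15 bound at both and 10 of these at least 4-fold higher in the adult (median 3.71, and 1.87 with the first e12.5 list alone). The adult-only members were the cytochromes of the 1, 2, 3 and 4 families such as Cyp1a2 (282 reads) and Cyp2a5 (1516), the esterase Ces1c (3070), the bile acid enzymes Cyp7a1 (65) and Baat (931) and the uptake carriers Slc10a1 (254) and Slco1b2 (433). Ugt1a1, which conjugates bilirubin, had 15 and 1372 reads (7.95). Abcb4 (179 and 62 reads, -0.09) and the glutathione transferase Gstp1 (142 and 73, 0.47) were near the median gene.

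Amino acid and urea cycle genes were bound in the adult only in 5 of 31, namely Tdo2, Hal (387), Sds (377), Tat (255) and Prodh (54), and 22 of the 26 bound at both were at least 4-fold higher in the adult (median 3.88). Within the urea cycle the ratio differed between enzymes. Cps1 had 148 and 2851 reads (5.70), Ass1 103 and 384 (3.33), Asl 43 and 123 (2.95) and Otc 584 and 1444 (2.74). Cps1, the first enzyme, had 2 clusters at e12.5 and 58 in the adult. Glul, which makes glutamine, was near the median gene (570 and 232, 0.14).

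Carbohydrate genes had a median of 0.78, with 8 of the 25 bound at both stages at least 4-fold higher in the adult and 5 at e12.5. The glucose-releasing G6pc and Fbp1 (294) were bound in the adult only, and Pck1, the control point of gluconeogenesis, had 10 and 948 reads (8.0). Fructose-metabolizing Khk (11 and 182, 5.48) and the platelet-type phosphofructokinase Pfkp (9 and 27, 3.02) were also higher in the adult. Higher at e12.5 were Hk1 (582 and 31, -2.80) and Hk2 (102 and 6, -2.65), the hexokinases of other tissues, and the widely expressed glucose carrier Slc2a1 (2048 and 118, -2.68). So were the phosphofructokinase gene Pfkl (971 and 73, -2.30) and the pyruvate kinase gene Pklr (642 and 47, -2.34).

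Lipid genes were higher in the adult on balance, with 18 of 34 at least 4-fold higher there and 2 at e12.5 (median 2.30). The stearoyl-CoA desaturases were split. Scd1 had 144 and 8566 reads (7.33) with 14 clusters at e12.5 and 43 in the adult, whereas Scd2 had 1932 and 97 (-2.88). Cpt1a, the gate of mitochondrial fatty acid oxidation, had 110 and 5949 reads (7.19), and Fabp1 460 and 5678 (5.06). The cholesterol synthesis genes Hmgcs1 (0.23) and Sqle (0.07) and the regulator Srebf2 (0.30) stayed near the median gene. The sterol exporters Abcg5 (314) and Abcg8 (48) were bound in the adult only. Ehhadh (2389 and 196, -2.17) was the other member higher at e12.5, and its sign turned with the first e12.5 list alone and with summed reads.

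Iron genes had a median of -0.76, with 2 of the 14 bound at both stages at least 4-fold higher in the adult and 5 at e12.5. Slc25a37 (3513 and 27, -5.59), which carries iron into mitochondria, and Tfrc (1368 and 36, -3.81), the transferrin receptor, were higher at e12.5, as was the ferritin gene Fth1 (7086 and 554, -2.24). Steap3, the ferrireductase of transferrin iron uptake, had 137 and 85 reads (0.75). The hepcidin genes Hamp and Hamp2 and their upstream factors Hfe (67) and Bmp6 (12) were bound in the adult only. Hfe2, the hemojuvelin gene (27 and 355, 5.15), and Cp, ceruloplasmin (38 and 827, 5.88), were higher in the adult. Slc40a1, the iron exporter ferroportin, was read at 937 and 711 (1.04).

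Of the 23 liver transcription factors bound at both stages, 9 were at least 4-fold higher in the adult and 1 at e12.5. Their median was 1.76, and it was 1.07 with at least 10 reads and 0.92 with at least 20. Hnf4a had 107 and 134 reads (1.76), Cebpa 272 and 118 (0.23) and Prox1 105 and 64 (0.72). The bile acid receptor Nr1h4 (82), the xenobiotic receptor Nr1i3 (35) and the corepressor Nr0b2 (69) were bound in the adult only, and Rxra, the partner of Nr1h4 and Nr1i3, had 160 and 1150 reads (4.28). Onecut1 (36) and Pparg (11) were bound at e12.5 only. Tcf7l2, of Wnt signalling, was the member highest at e12.5 (302 and 8, -3.80).

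In the growth hormone and insulin list the median was 0.33. Igf1 had 27 reads in 3 clusters at e12.5 and 712 in 40 clusters, 29 of them in the 3′UTR, in the adult (6.16). Igfals, which carries IGF1 in plasma (593 reads), and Igfbp2 (554) were bound in the adult only, Ghr had 49 and 126 reads (2.80), and the receptor Igf1r had 135 and 12 (-2.06). The insulin receptor Insr (0.04) and the kinases Akt1 (0.05) and Mtor (0.32) were near the median gene, whereas Pik3r1, the regulatory subunit of PI 3-kinase, had 447 and 784 reads (2.25). Socs2, the feedback inhibitor of growth hormone signalling, was bound at e12.5 only (142).

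Of 28 Hippo genes, 24 were bound at both stages, with a median of -0.10 that turned positive with the first e12.5 list alone (0.092), with sites of at least 7 matched bases (0.30) and with an equal floor on mRNA cluster reads (0.016). The kinase Taok1 had 1935 and 61 reads (-3.55) and the phosphatase gene Ppp1cc 373 and 45 (-1.62), while Wwc1 had 38 and 122 (3.12) and Lats1 154 and 217 (1.93). Yap1 was read at 58 and 38 (0.82). Wwtr1, the gene of TAZ, had 46 reads in 9 clusters in the adult and none in an mRNA region at e12.5, but 44 at e15.5 and 111 at e18.5. Extracellular matrix genes were bound at both stages in 28 of 29 (median 0.42), with Fn1 (293 and 1580, 3.87) highest.

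The miRNA machinery was bound at both stages in 14 of 18. Its median was -0.85, but -0.16 with the first e12.5 list alone and -0.40 with the second alone. Ago2 itself had 591 reads in 87 clusters at e12.5 and 28 in 13 clusters in the adult (-2.96), Tnrc6b 1430 and 78 (-2.76) and Dicer1 998 and 118 (-1.65). Tnrc6a (0.29) and Drosha (0.43) were near the median gene. Ribosomal protein and elongation genes were lower in the adult, with 12 of 27 at least 4-fold higher at e12.5 and 0 in the adult (median -1.72, and -0.54 with the first e12.5 list alone), with Rpl13 (640 and 5, -5.57) the lowest of the list, which does not hold Rpl26. Several of these genes have processed copies that could share reads.

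Where Ago lay along the mRNA also differed. In the genes bound at both stages, the 3′UTR held 42.0% of the e12.5 clusters and 30.3% of the adult ones, and the CDS 60.9% and 72.3%; a cluster can be annotated to several regions. Among stage-only genes, 36.8% (36.0 to 37.7) of the clusters were in the 3′UTR at e12.5 and 22.8% (21.6 to 24.05) in the adult. The same was seen within genes. In the 862 genes with at least 10 clusters at both stages, the median share in the 3′UTR was 38.1% at e12.5 and 27.3% in the adult, lower in the adult in 598 genes (69.4%) and higher in 226. The highest cluster of the gene lay in the 3′UTR in 32.5% (31.5 to 33.5) at e12.5 and in 20.8% (20.01 to 21.7) in the adult. These intervals cover counting error only, and no share per list of the e12.5 table is given here. In the paper's interaction counts, the 3′UTR made up a larger part of the e18.5 repeat than of the first e18.5 sample. Variation between libraries of a stage thus cannot be told apart from a difference between the stages.

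**Figure D4:**
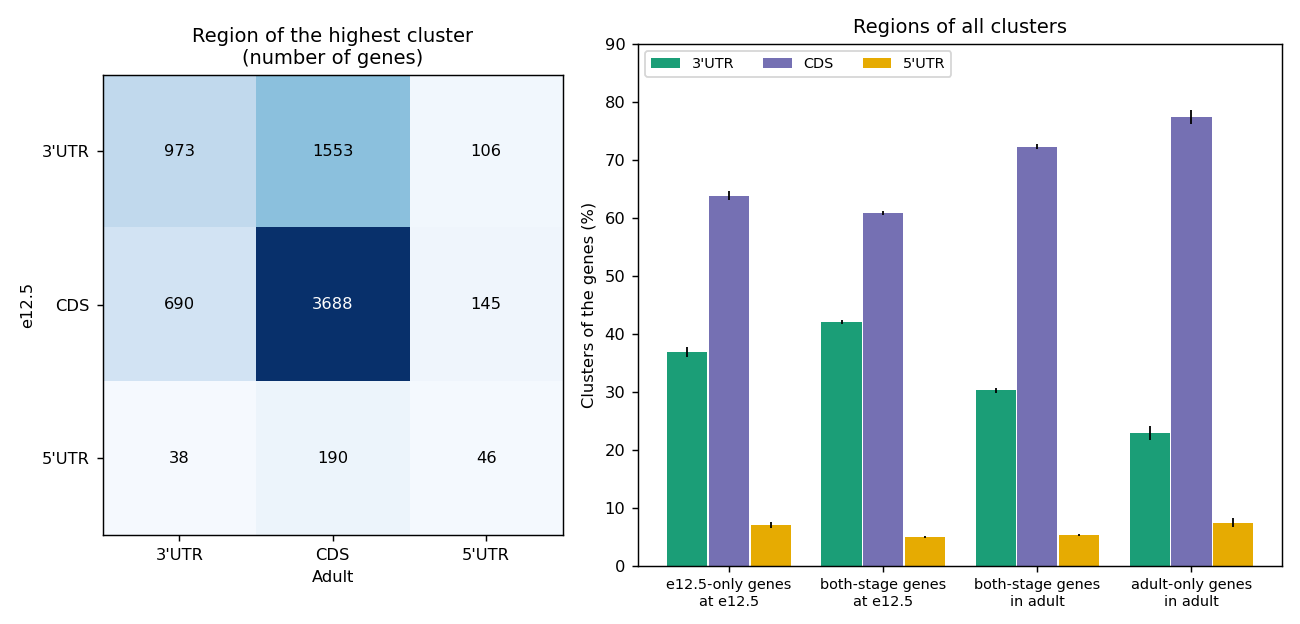
Left, number of genes by the region of the highest cluster at e12.5 (rows) and in the adult (columns), over the 7429 genes whose highest cluster had 1 region at both stages; right, share of clusters in each region for stage-only and both-stage genes, with Wilson 95% intervals. Moves from 3′UTR to CDS (1553 genes) outnumber those from CDS to 3′UTR (690), and 4707 genes lie on the diagonal.

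Over the 7429 genes whose highest cluster had 1 region at both stages, 4707 (63.4%) kept it. The commonest move was from the 3′UTR at e12.5 to the CDS in the adult, in 1553 genes, against 690 from CDS to 3′UTR. Among the 289 list members with 1 region at both stages the same moves were made by 43 (14.9%) and 24 (8.30%), against 20.9% and 9.29% of all genes. Examples were found on both sides: Ass1, Elovl5, Cbs and Ahcy had their highest cluster in the 3′UTR at e12.5 and in the CDS in the adult, and Cp, Dgat2 and Amotl2 the reverse.

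A complete switch, with every cluster of a gene in 1 region at e12.5 and in the other in the adult, was rare. It ran from 3′UTR to CDS in 124 genes, 1.4% of those bound at both stages, and from CDS to 3′UTR in 72, 0.813%. Between the 2 lists of the e12.5 table the same switches were found in 120 and 61 of 7283 genes, or 1.65% and 0.838%. These shares were about as high as those between the stages. The lists are not labelled as replicates and differ in depth, with 25134 and 82602 mRNA clusters, so the 2 sets of shares are not strictly comparable. Most rested on few clusters: 64 of the 124 genes and 32 of the 72 had 1 cluster at both stages, and 10 and 1 had at least 2 at both. At P7, 109 of the 124 genes were bound, 8 of them in the 3′UTR only and 35 in the CDS only, and 62 of the 72 genes, 11 in the 3′UTR only and 21 in the CDS only, so CDS-only binding was commoner than 3′UTR-only binding at P7 in both sets.

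The switch genes were ranked by the lower of their scaled reads at the 2 stages. First from 3′UTR to CDS were Rin3, a Rab5 regulator (124 reads in 1 cluster at e12.5 and 117 in 4 in the adult), the small GTPase Rab28 (120 in 4, 71 in 1), Rpusd1 (152 in 1, 66 in 1) and Apmap (137 in 2, 64 in 4). Cmtm3, Exoc3l2, Cox10, of haem A synthesis, and Urm1, which modifies tRNA, followed. Cox10 had 6 clusters in the 3′UTR at e12.5 with 146 reads in the highest, which came from the first list, where the highest of the second list held 142, and 2 in the CDS in the adult with 41 reads. In the other direction were B3galt1 (110 and 58 reads), Ccdc120 (106 and 47), Klhl3, a ubiquitin ligase adaptor (80 and 142), Tcp11l1 (68 and 42), Armc6 (151 and 34), Cadm3 (59 and 58), Zfp707 (45 and 80) and Cbwd1 (41 and 23). Each of these 8 had a single cluster in the adult.

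Bound miRNAs were compared by seed family. The 50 families with the most miRNA reads in either table made 72 abundant families, and a gene was counted as bound by a family when a cluster held a site of at least 7 matched bases. At e12.5, 8459 genes had such a family and in the adult 6863; 5091 genes had one at both stages, with medians of 3 and 2 families per gene. In 1800 of these (35.4%) no family was shared. The family with the most miRNA reads of its table, called the leading family, differed in 3944 (77.5%). Between the 2 lists of the e12.5 table, 26.1% of 3694 genes shared no family and the leading one differed in 62.1%. Such switches were thus also frequent between the lists, whose unequal depth limits the comparison with the stages. The clusters themselves were mostly at different places: 13767 of the 53533 adult clusters (25.7%) overlapped an e12.5 cluster, and 3599 (40.6%) of the genes bound at both stages had no overlapping cluster.

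**Figure D5:**
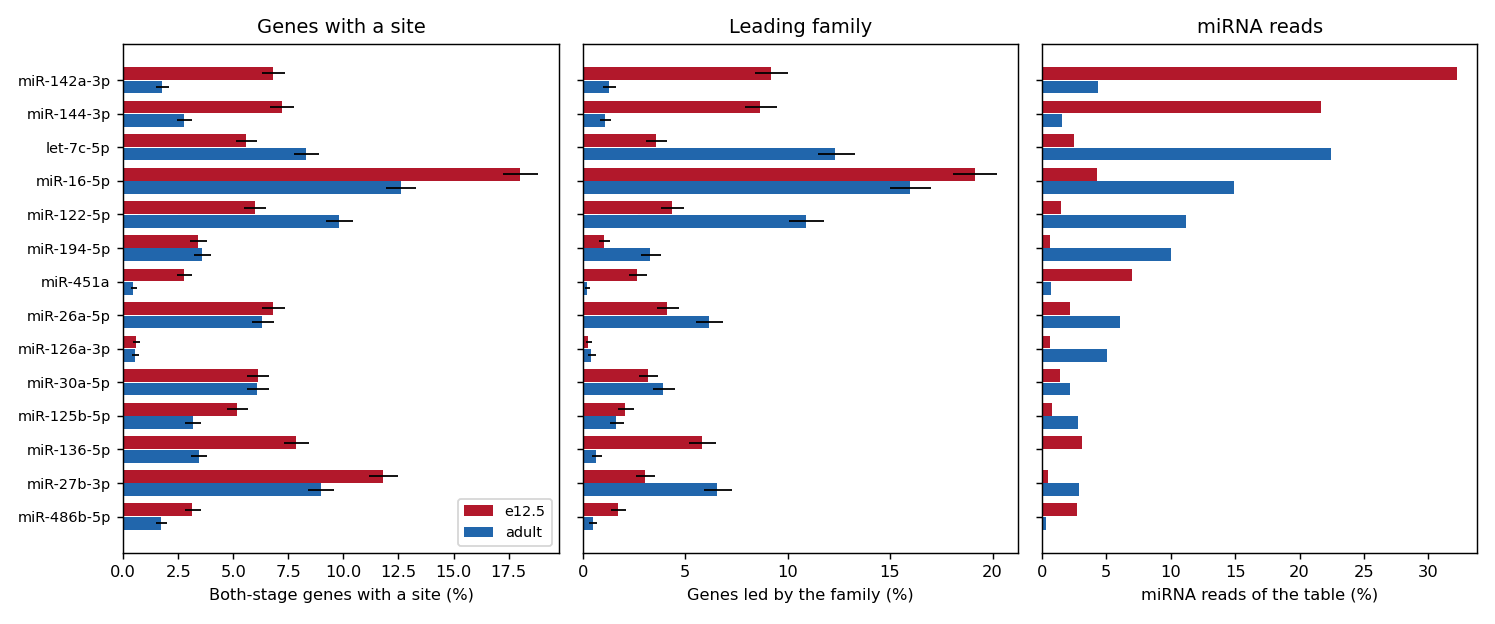
Left, share of the 8860 genes bound at both stages with a site of each seed family in a cluster at e12.5 (red) and in the adult (blue); middle, share of the 5091 genes led by the family; right, share of the miRNA reads of each table. Error bars are Wilson 95% intervals; miR-142a and miR-144 are higher at e12.5 in all 3 panels, with 9.19% and 8.66% of genes led by them at e12.5 and 1.28% and 1.08% in the adult.

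Single families differed in direction. Sites of miR-142a were found in 601 of the both-stage genes at e12.5 and 156 in the adult, those of miR-144 in 637 and 243, and those of miR-451a in 243 and 41. let-7 sites were found in 494 and 736 genes and miR-122 sites in 529 and 870, although the adult table has fewer clusters. The miR-16 family, which shares its seed among 8 miRNAs of these tables, went from 1597 to 1117 genes while its share of the miRNA reads was higher in the adult. The miR-27b sites (1046 and 794 genes), the miR-125b sites (458 and 279) and the miR-26a sites (602 and 560) also had fewer genes in the adult with a higher share of miRNA reads, 2.87%, 2.80% and 6.07% against 0.488%, 0.755% and 2.15% at e12.5. The miR-126a sites (52 and 48) and the miR-30a sites (541 and 540) hardly differed in number. None of these gene counts is adjusted for the number of clusters. Counted per gene, the both-stage genes had 83290 clusters at e12.5 and 49394 in the adult. A lower count in the adult therefore does not mean fewer sites per cluster. The miR-16 family led 19.1% and 16.0% of genes. let-7 led 3.56% at e12.5 and 12.3% in the adult, and miR-122 4.36% and 10.9%. The leading family is defined by miRNA reads, so these last shares follow in part from the miRNA reads of each table.

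By pairs, the commonest course was miR-16 at both stages, in 393 genes, followed by miR-122 at both in 148 and miR-16 then let-7 in 115. miR-142a gave way to miR-16 in 78 genes, to let-7 in 63 and to miR-122 in 51, and miR-144 to let-7 in 72 and to miR-16 in 57. Genes led at e12.5 by miR-142a, miR-144, miR-451a, miR-136 or miR-486b and in the adult by let-7, miR-122, miR-194, miR-26a, miR-29a or miR-27b numbered 682, and the reverse 7. These 11 families were chosen for their miRNA reads, which enter the definition of the leading family.

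Pairs of sites from 5 of the genes with no shared family, chosen among those with the most reads at both stages, are shown for the change of seed match. Capitals mark the seed match as above.
Trappc1 at e12.5, miR-142a site in the CDS at chr11:69324190-69324212, plus strand, 46 reads: gaatggagtgtgtctACACTACA
Trappc1 in the adult, let-7 site in the 3′UTR at chr11:69325559-69325580, plus strand, 142 reads: gctggctgaaacatCTACCTCA
Fosl2 at e12.5, miR-16 site in the 3′UTR at chr5:32157685-32157706, plus strand, 216 reads: gcttggtaggagctTGCTGCTA
Fosl2 in the adult, miR-122 site in the 3′UTR at chr5:32154146-32154167, plus strand, 242 reads: ctagaagccacacatCACTCCA
Lgmn at e12.5, miR-199a site in the CDS at chr12:102394570-102394591, minus strand, 489 reads: agtgtgtcttagtcACTACTGA
Lgmn in the adult, miR-27b site in the CDS at chr12:102404290-102404310, minus strand, 297 reads: aggtgacgcagaagCTGTGAA
Yme1l1 at e12.5, miR-486b site in the CDS at chr2:23164525-23164546, plus strand, 293 reads: cgttcctctagcttGTACAGGc
Yme1l1 in the adult, let-7 site in the CDS at chr2:23168328-23168349, plus strand, 227 reads: acgacgtttgcagtCTACCTCt
B4galt1 at e12.5, miR-16 site in the 3′UTR at chr4:40806786-40806807, minus strand, 263 reads: tgacaaattgagacTGCTGCTg
B4galt1 in the adult, miR-24 site in the CDS at chr4:40853660-40853681, minus strand, 169 reads: tctctggccgcgatCTGAGCCg

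Trappc1, of vesicle tethering, had 5 families at e12.5 and only let-7 in the adult. Fosl2, a subunit of AP-1, was bound in its 3′UTR at both stages by different families, with 216 and 242 reads, and its e12.5 site scored 1 for conservation and its adult site 0.082. Lgmn, the lysosomal protease legumain, had 489 and 297 reads. Yme1l1, a mitochondrial protease, had 293 and 227, and B4galt1, a galactosyltransferase, had 469 and 169, with 7 families at e12.5 and 2 in the adult. Also among the leading 12 were Sec23ip (miR-20a then miR-29a), Armc8 (miR-19b then miR-122), Edc4 of mRNA decapping (miR-142a then miR-540), Steap4 (miR-152 then miR-101a), Vangl1 of planar cell polarity (let-7 then miR-194) and Acad11 (miR-673 then let-7). The centred log2 ratios of the genes named here ran from -0.11 for Vangl1 to 1.65 for Steap4, and the choice of genes with many reads at both stages favours such small ratios. Of all 1800 genes without a shared family, 1028 (57.1%) had no adult cluster overlapping an e12.5 cluster.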

How the data were processed

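Ago HITS-CLIP was done by the authors on mouse liver at 5 stages, with 1 table of miRNA-target interactions per stage. The authors mapped reads with Bowtie to mm10, grouped overlapping reads into clusters and scanned these for seed matches; the versions are not given in the sources used here, and mm9 also stands among the builds in the submitters' processing notes. The deposited read column was used as a signal, whole numbers with no scaling. The deposited conservation score was used as a fraction from 0 to 1, and the genes, regions and positions of sites as the authors' annotation. The whole number that each deposited interaction name carries for its miRNA was taken as miRNA reads, which the tables do not state. Gene symbols that a spreadsheet had turned into dates, 20 at e12.5 and 13 in the adult, were restored.

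Here, clusters of the 2 lists of the e12.5 table that overlapped on the same strand were joined. Genes were compared by clusters, scaled reads, regions and seed families (bases 2 to 8), without tests, since the labels give 1 sample per stage. Biological replicates are mentioned in the methods, but the labels and the tables of both stages do not mark any, so the lists of the e12.5 table were not treated as such. Named genes were the 12 leading genes of each stage-only class that the other table lists nowhere, the 8 leading genes of each region switch, the 8 largest ratios in each direction with at least 50 reads, the 12 leading genes without a shared family, and members of the lists. Some named genes are not reported here. The members and lists were chosen with earlier results of these data known. Site sequences were read from GRCm38 and equalled the deposited ones for all 22 sites shown. The steps were tested on simulated data. Alternatives were 14 planned settings and 2 chosen after seeing the data. Python 3.11.15, pandas 2.3.3, numpy 2.4.6, pysam 0.24.0, samtools 1.23.1 and matplotlib 3.10.9 were used.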

Additional observations from a re-analysis of the deposited data

How the results depend on the processing

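No paired analysis was possible because each stage has 1 sample. Of the main counts and shares, 112 values under other settings stayed within 1.5 times the main count, or within the interval of the main share, and 48 did not. The first e12.5 list alone gave 1364 genes bound at e12.5 only, 3858 in the adult only, 3836 and 171 genes at least 4-fold higher at e12.5 and in the adult, 223 genes switching from 3′UTR to CDS and 2096 with another leading family. Genes at least 4-fold higher at e12.5 and in the adult numbered 1021 and 571 with at least 20 reads, 911 and 1572 with scaling to mRNA cluster reads, and 1065 and 1379 after centring; summed clusters gave 2586 at e12.5. No shared family was found in 1063 genes with the first 20 families of each table and in 840 with 3′UTR sites alone, and another leading family in 2470 and 1600.

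Shares of e12.5-only genes bound at e15.5, e18.5 and P7 were 54.6%, 43.3% and 59.1% with at least 10 reads, 57.5%, 44.2% and 41.8% with at least 20 (lower at each later stage), 55.7%, 52.1% and 66.4% with an equal floor on summed reads, 69.8%, 62.0% and 74.3% with the first list, 54.4%, 50.9% and 64.5% with the second, and 57.7%, 52.0% and 68.1% with an equal floor on mRNA cluster reads, which was chosen after seeing the data. Shares of adult-only genes were 31.4% at e18.5 and 65.1% at P7 with at least 10 reads, 24.7%, 35.0% and 51.3% at e15.5, e18.5 and P7 with at least 20, 23.9% at e15.5 with the floor on summed reads, 50.7%, 60.3% and 83.4% with the first list, 24.1% at e15.5 and 70.5% at P7 with the second, and 25.4% at e15.5 and 71.5% at P7 with the floor on mRNA reads. The cause of these differences was not tested.

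List medians reversed for Hippo genes (0.092, 0.30 and 0.016) and leukocyte genes (0.37), under the settings named with them. Over all settings the other list medians ran from -2.43 to -0.46 for fetal, -4.64 to -2.64 for erythroid, -4.32 to -1.86 for cell cycle, -2.34 to -0.54 for ribosomal protein, -1.41 to -0.16 for miRNA machinery, -0.90 to -0.42 for iron, 0.13 to 0.83 for growth hormone and insulin, 0.25 to 1.46 for extracellular matrix, 0.39 to 1.17 for carbohydrate, 0.92 to 2.46 for transcription factor, 1.80 to 2.57 for lipid, 1.87 to 5.36 for drug and bile acid, 3.23 to 5.0 for amino acid and 4.38 to 5.08 for plasma protein genes. Of the list members at least 4-fold apart, Dgcr8, Ehhadh and, with clusters of 1 gene only, Trf changed direction. Of all members with a ratio, 27 of 276 changed direction with the first e12.5 list alone and 40 of 339 with the second. With summed clusters it was 34 of 344, and with any other setting at most 17. Leaving out clusters over miRNA genes, also chosen after seeing the data, moved none of these counts by over 1.5 times. Depth limits the absence of a gene: no cluster under 5 reads is listed.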
